A study of Mus musculus with 2 samples.

Results

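Fhl1, Lamp2, Mtm1, Emd, Gla and Atp7a are X-linked genes in which mutations cause cardiomyopathy, muscle disease, storage disease or, for Atp7a, Menkes disease in human. These 6 genes were chosen by name, by a rule that uses no measured value but with earlier results of these data known, and all 6 were listed in both heart libraries, out of 25235 genes listed in at least 1 library. They were followed in single-nucleus RNA-seq (snRNA-seq) of 2 hearts, taken at 9 weeks (adult) and at 78 weeks (aged), from F1 females of a C57BL/6J (BL6) mother and a CAST/EiJ (CAST) father. The titles mark both females as wild type at Xist (++), as do the study's methods, although the strain field of the labels names the mother's line with its Xist deletion. The age of 78 weeks is that of the labels, which a different figure in the deposited table's name contradicts. X inactivation was therefore free to silence either X chromosome, and only nuclei in which the BL6 X was the active one (Xa) were pooled, so that BL6 is the allele of the Xa and CAST that of the inactive X (Xi). Xist, which is transcribed from the Xi, shows how many reads of the other allele these pools held, with BL6 at 4.18% (3.88% to 4.49%) of its reads in the adult pool and 3.14% (2.81% to 3.49%) in the aged one. A CAST share of about this size is therefore not read as expression from the Xi. The nuclei were selected by their chromosome-wide allelic ratio, so a high BL6 share on the X chromosome follows from the selection and is not a finding. Each age is 1 heart and 1 library, no test between ages was possible, and all intervals below are 95% intervals of counting error only, which leave out the variation between animals.

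In a female, X inactivation leaves every cell with 1 expressed copy of most X-linked genes, and a heterozygous carrier of a mutation is a mosaic of cells with and without the functional product. A gene that escapes inactivation is expressed from both chromosomes, which is why the allelic state of a disease gene in the heart is of interest. The 6 proteins act in different parts of the cell. Fhl1 is a LIM-domain protein of the sarcomere, Mtm1 (myotubularin) is a phosphoinositide phosphatase of endosomes that is lost in X-linked myotubular myopathy, and Lamp2 is a membrane protein of the lysosome whose loss causes Danon disease. Gla is alpha-galactosidase A, the lysosomal enzyme deficient in Fabry disease. Emd (emerin) is an inner nuclear membrane protein whose loss causes Emery-Dreifuss muscular dystrophy, and Atp7a is the copper-transporting ATPase mutated in Menkes disease.

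Promoter sequences are given for the genes whose reads differed most between the hearts, Fhl1 and Emd, and for Gla, which had almost no reads. Each is a RefSeq window of 300 bases on GRCm38.p6, 250 before and 50 after an annotated start, printed 5' to 3' on the strand of the gene. CpG dinucleotides, the sites methylated at silenced promoters of the Xi, are in capitals for Emd and Fhl1. In the Gla window, the capitals mark CACGTG, a palindrome that is the core of the binding site of Tfeb, the transcription factor of lysosomal genes.
Emd (plus strand, chrX:74254437-74254736): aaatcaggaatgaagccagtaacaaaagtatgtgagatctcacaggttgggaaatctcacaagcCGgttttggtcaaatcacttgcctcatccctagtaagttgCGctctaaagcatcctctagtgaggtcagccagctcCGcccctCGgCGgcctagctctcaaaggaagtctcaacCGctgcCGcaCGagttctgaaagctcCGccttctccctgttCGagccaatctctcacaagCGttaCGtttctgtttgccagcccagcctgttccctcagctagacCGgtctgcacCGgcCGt
Fhl1, upstream start (plus strand, chrX:56779433-56779732): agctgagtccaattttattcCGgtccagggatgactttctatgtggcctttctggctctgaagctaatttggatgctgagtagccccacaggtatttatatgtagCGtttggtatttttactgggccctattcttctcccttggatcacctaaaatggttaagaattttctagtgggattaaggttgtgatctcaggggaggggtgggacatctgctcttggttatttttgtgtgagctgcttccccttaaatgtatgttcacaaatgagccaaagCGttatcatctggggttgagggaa
Fhl1, downstream start (plus strand, chrX:56786277-56786576): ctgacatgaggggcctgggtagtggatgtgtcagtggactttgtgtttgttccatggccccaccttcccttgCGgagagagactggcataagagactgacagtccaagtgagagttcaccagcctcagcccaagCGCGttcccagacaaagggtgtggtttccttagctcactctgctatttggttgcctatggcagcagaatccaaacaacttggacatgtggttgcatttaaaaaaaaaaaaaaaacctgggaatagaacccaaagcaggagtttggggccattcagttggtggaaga
Gla (minus strand, chrX:134600956-134601255): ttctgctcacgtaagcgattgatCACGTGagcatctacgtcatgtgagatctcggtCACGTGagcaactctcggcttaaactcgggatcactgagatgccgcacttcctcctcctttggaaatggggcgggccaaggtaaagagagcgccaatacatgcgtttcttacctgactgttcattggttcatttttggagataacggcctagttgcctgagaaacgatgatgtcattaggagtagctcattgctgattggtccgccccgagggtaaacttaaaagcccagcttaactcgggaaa

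The Emd window held 15 CpG, more than 65.4% of the 32851 mouse promoter windows. Both Fhl1 windows held only 3 CpG each, and 23.3% of all windows held fewer. Both lie inside the deposited Fhl1 locus, which starts at 56731720, and neither covers that start. The other members covered the same range, with 10 CpG in the Lamp2 window, 22 in that of Atp7a, and 0, 14 and 17 in the 3 windows of Mtm1, of which the last 2 overlap. CACGTG occurred 2 times in the Gla window and once each in the Atp7a window and in both overlapping Mtm1 windows, but not in those of Lamp2, Emd or Fhl1. It was present in 7.15% of all windows and 8.59% of those on chromosome X. CCAAT on either strand was found 3 times in the Gla window and once each in those of Lamp2 and Emd, in the upstream Fhl1 window and in both overlapping Mtm1 windows, against 37.4% of all windows with at least 1 copy. No window of a member matched the binding consensus of Mef2, a transcription factor of muscle, which matched 3.19% of all windows. These matches describe letters and say nothing about whether a factor was bound.

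The deposited values are counts, per allele and gene, of reads over single-nucleotide polymorphisms (SNPs) between BL6 and CAST. In all, 9747535 such reads were listed for the adult and 5805807 for the aged library. To compare the libraries, reads of a gene were divided by the SNP-overlapping reads summed over every gene of the library and are given per 1000000 such reads (RPM). On this scale the median of 12730 genes with at least 20 reads in both libraries was higher in the aged library, by 0.22 on the log2 scale, so the changes of the 6 genes and the counts of changed genes are also given after scaling by size factors (the median of ratios), which multiplies every ratio by 0.870. Heart markers were present in both libraries, with the 6 cardiomyocyte markers together at 28072 RPM at 9 weeks and 25357 RPM at 78 weeks, and Ryr2 and Ttn as the genes with most reads. Ttn was lower in the aged library, at 11849 and 6872 RPM, a ratio of 0.580, so the lower cardiomyocyte sum mostly follows this gene. Actn2, Ryr2 and Myh6 had ratios of 1.39, 1.15 and 1.15 in RPM, and Tnnt2 and Myh7b 0.976 and 0.725. With size factors the cardiomyocyte sum had a ratio of 0.786. On that scale Ttn (0.505) and Myh7b (0.631) were lower by 1.5 times or more and 0 markers were higher by as much. Actn2, Ryr2, Myh6 and Tnnt2 had ratios of 1.21, 0.999, 0.999 and 0.849. Of the 6 skeletal muscle markers, 3 were listed, together at 12.6 and 4.48 RPM. Summed markers of 4 other cardiac cell types were higher in the aged library, in RPM and with size factors. The summed fibroblast markers (Dcn, Pdgfra, Gsn, Col3a1, Col1a1 and Col1a2) went from 614 to 954 RPM, with Dcn, Pdgfra and Gsn higher by 1.5 times or more and Col3a1 lower among the 5 with at least 20 reads. With size factors only Gsn stayed above 1.5 times, while Pdgfra and Dcn had ratios of 1.49 and 1.46. Col3a1 stayed lower, at 0.569 (0.476 to 0.677). Col1a2 had a ratio of 0.888 in RPM and 0.773 (0.653 to 0.913) with size factors. Dcn alone made up 461 of the 614 RPM in the adult library, so the fibroblast sum mostly follows this gene. The summed pericyte and smooth muscle markers went from 207 to 486 RPM, 5 of 6 being higher by 1.5 times or more (Pdgfrb, Rgs5, Myh11, Acta2 and Notch3), also with size factors. The remaining marker, Abcc9, had a ratio of 0.853 in RPM and 0.742 (0.593 to 0.926) with size factors. The endothelial sum went from 482 to 760 RPM. Of its 6 markers, Pecam1, Flt1 and Kdr were higher by 1.5 times or more on both scales, whereas Cdh5, Vwf and Emcn had ratios of 1.12, 0.953 and 0.970 in RPM. The latter became 0.976 (0.798 to 1.19), 0.830 (0.688 to 0.997) and 0.844 (0.773 to 0.921) with size factors. The macrophage sum went from 319 to 504 RPM, with 3 of 6 markers (Mrc1, Adgre1 and F13a1) past 1.5 times in RPM and 0 with size factors. The adipocyte sum was 39.0 and 30.1 RPM. The values were pooled over the nuclei with a BL6 Xa, so the marker sums describe only these nuclei. In pooled values, more cells of a type and more RNA per cell cannot be told apart. The part of these shifts in the results on the 6 genes was not tested.

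Of the 6 genes, Fhl1, Lamp2, Mtm1, Atp7a and Emd reached the minimum of 20 reads in both libraries, and Gla did not. Of these 5, 2 (Fhl1 and Emd) had at least 1.5 times more RPM in the aged library and 0 had 1.5 times less. Among all genes, 28.0% were higher by this fold and 11.8% lower, and among the 338 X-linked genes 18.0% and 14.5%. With size factors, the same 2 genes remained above 1.5 times, whereas the shares of all genes became 18.8% and 17.7%. The median log2 ratio of the 5 genes was 0.39 in RPM, beside 0.22 over all genes and 0.09 over the X-linked genes. An allelic ratio (the BL6 share of reads) of 0.9 or lower, the study's definition of escape, was reached by no member in the adult library (0 of 5) and by 1, Emd, in the aged library. Beside this, 9.21% of 391 X-linked genes at 9 weeks and 11.6% of 344 at 78 weeks lay at or below 0.9. These genes had at least 20 reads in that library alone, so the 2 sets differ from each other and from the 338 genes.

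**Figure D1:**
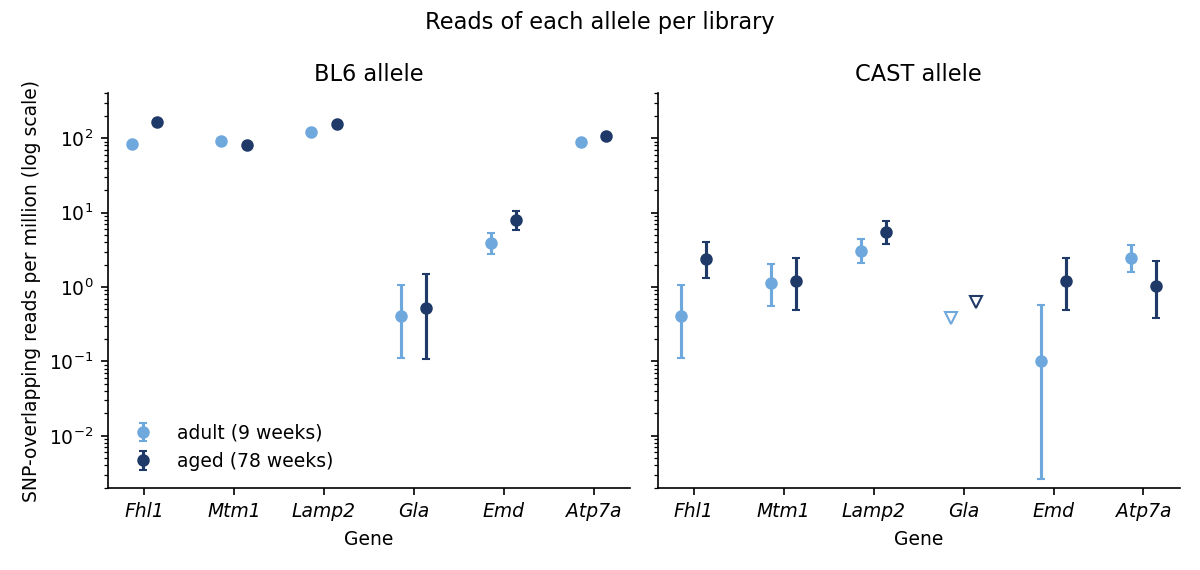
SNP-overlapping reads in RPM (log scale) of the BL6 allele (left) and the CAST allele (right) for each gene in the adult (light) and aged (dark) library. Points are single libraries, bars are 95% Poisson intervals, and open triangles mark the upper limit where no read was found; Fhl1 shows the widest gap between libraries on the BL6 side among the 4 deeply covered genes.

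Fhl1 lies on the plus strand of chromosome X from 56731720 to 56793346 (GRCm38, 61.6 kb), of which GENCODE exons cover 6.03%. It tethers to the stretch-sensing region of titin and is known for its induction in hypertrophied heart muscle. In the adult library 810 reads were of BL6 and 4 of CAST origin, and in the aged library 959 and 14, although the aged library was the shallower one. The BL6 reads alone were at 83.1 RPM (77.5 to 89.0) at 9 weeks and 165 RPM (155 to 176) at 78 weeks, intervals that lay far apart. Both alleles together had an aged to adult ratio of 2.01 (1.83 to 2.21), above that of 94.3% of the other informative X-linked genes. With size factors the ratio was 1.75.

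The CAST allele of Fhl1 was among the least represented in the adult heart. Its share of reads was 0.491% (0.134% to 1.253%), and only 12.0% of 333 other X-linked genes had a lower one. At the CAST share of the whole X chromosome without Xist and Tsix, 2.94%, a gene of this depth would have had 23.9 CAST reads instead of 4. This share sums the reads of all these X-linked genes, including those that escape and those that the study excluded for their values in males. The median share of the 333 other X-linked genes was 2.35% in both libraries. In the aged library the CAST share of Fhl1 was 1.44% (0.789% to 2.40%), and 14 CAST reads compared with 33.4 at the aged share of the chromosome, 3.43%. CAST reads went from 0.410 RPM (0.112 to 1.05) to 2.41 RPM (1.32 to 4.05), a ratio of 5.88 (1.85 to 24.5). The allelic ratio was 0.995 (0.987 to 0.999) and 0.986 (0.976 to 0.992), a change of 0.00947 whose interval (-0.000127 to 0.0195) included 0. Thus more CAST reads were counted in the aged heart, but they stayed below the chromosome-wide share, and the allelic ratio did not differ beyond counting error.

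The locus downstream of Fhl1, Mtap7d3, starts 1486 bp after its end and also had more reads in the aged library, 84 against 75, a ratio of 1.88 (1.36 to 2.60) in RPM and 1.64 with size factors. The X-linked genes most like Fhl1 in allelic ratio and change of reads, over 3 values from 2 libraries, were LOC108168482, with 100 and 119 reads and a ratio of 1.998, and Atp6ap1, with 82 and 98 reads and a ratio of 2.01. Among the listed LIM-domain and stretch-response genes, 3 of 6 with at least 20 reads were higher by 1.5 times or more and 0 were lower, beside 28.0% and 11.8% of all genes. They were Fhl2, the paralog with most reads in heart, with a ratio of 1.70 (1.67 to 1.73), Fhl3, with 2.47 (1.59 to 3.89), and Pdlim5, an adaptor of the Z-disc, with 1.72 (1.68 to 1.76). With size factors only 1 of them, Fhl3, stayed above 1.5 times. Ankrd1, a stress-responsive partner of titin, was at 81.1 and 83.7 RPM, a ratio of 1.03 (0.919 to 1.16).

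Mtm1 spans 105 kb on the plus strand from 71210767 to 71315413. By removing phosphate from phosphoinositides it shapes endosomes and the membrane triads of striated muscle. The adult library held 893 BL6 reads and 11 CAST reads of Mtm1, and the aged library 465 and 7. Total reads were 92.7 RPM (86.8 to 99.0) and 81.3 RPM (74.1 to 89.0), a ratio of 0.877 (0.783 to 0.981), and 0.763 with size factors. Mtm1 was the one member with a ratio below 1. Scaled to the reads of X-linked genes, the ratio was 0.929 and its interval (0.829 to 1.04) included 1. The allelic ratio was 0.988 (0.978 to 0.994) and 0.985 (0.970 to 0.994), the smallest change of the 5 genes at 0.00266 (-0.00951 to 0.0190). CAST reads, 1.13 RPM and 1.21 RPM, were below those given by the chromosome-wide share in both libraries, 11 against 26.6 and 7 against 16.2.

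The neighbours of Mtm1 also had ratios below 1. Mtmr1, the nearest relative of Mtm1 and 49346 bp away, had 467 reads (5 of CAST) at 9 weeks and 242 (6 of CAST) at 78 weeks, a ratio of 0.870 with an interval (0.742 to 1.02) that included 1. By the same 3 values, Mtmr1 and Fmr1 (ratio 0.877) were the X-linked genes most like Mtm1. Mamld1 on the other side, 54710 bp away, had a ratio of 0.656 (0.593 to 0.726) and an allelic ratio of 0.975 and 0.994. Of 16 myotubularin and centronuclear myopathy genes with at least 20 reads, 5 were higher by 1.5 times or more and 0 lower, beside 28.0% and 11.8% of all genes, which became 2 (Dnm2 and Mtmr9) and 0 with size factors. Dnm2, the dynamin of centronuclear myopathy, went from 88.9 to 190 RPM, a ratio of 2.14 (1.96 to 2.34). Speg, a kinase of the triad that binds Mtm1, had a ratio of 1.62 (1.503 to 1.74), Mtmr12, the catalytically inactive partner that stabilises Mtm1, 1.52 (1.35 to 1.71), and Mtmr9 2.06 (1.72 to 2.47). The last of the 5, Mtmr4, had only 47 and 43 reads and an interval (0.992 to 2.37) that included 1. Mtmr3 had most reads of the list, 367 and 426 RPM. In RPM, 9 of the 16 genes had a ratio above 1.

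Lamp2 lies on the minus strand from 38401357 to 38456463 (55.1 kb). It is needed for the fusion of autophagosomes with lysosomes, and its loss leaves heart muscle filled with autophagic vacuoles. It had the most reads of the 6 genes at 9 weeks, 1179 of BL6 and 30 of CAST, and 914 and 32 at 78 weeks. Per kilobase of locus it was also the highest of the 6 in both, at 2.25 and 2.96 RPM per kb, followed in the aged library by Fhl1 at 2.72. The number of SNPs per gene is not given in the files and affects this order. Total reads were 124 RPM (117 to 131) and 163 RPM (153 to 174), a ratio of 1.31 (1.21 to 1.43) that became 1.14 with size factors. Part of the difference in RPM was thus shared with the median gene. Scaled to the reads of X-linked genes, the ratio was 1.39 (1.28 to 1.52).

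The CAST share of Lamp2 was 2.48% (1.68% to 3.52%) at 9 weeks and 3.38% (2.33% to 4.74%) at 78 weeks, close to the chromosome-wide share in both, with 30 and 32 CAST reads beside 35.5 and 32.4 given by that share. The allelic ratio was 0.975 and 0.966, a change of 0.00901 (-0.00524 to 0.0244). In RPM, the CAST reads had a ratio of 1.79 (1.05 to 3.05) and the BL6 reads one of 1.30 (1.19 to 1.42), and these intervals overlapped. No informative gene lay close to Lamp2, since Nkap was 1250610 bp and Thoc2 3338528 bp away. Taz, the X-linked gene of Barth syndrome cardiomyopathy, had the pattern most like that of Lamp2, with 329 and 256 reads, an allelic ratio of 0.979 and 0.961 and a ratio of 1.31. Snx12 came next, with a ratio of 1.34. The list of the lysosomal membrane and of autophagosome fusion had 10 genes with at least 20 reads. Of these, 3 were higher by 1.5 times or more and 1 lower, beside 28.0% and 11.8% of all genes. With size factors 1 (Snap29) was higher and 2 (Stx17 and Vps41) lower, beside 18.8% and 17.7%. Lamp1, the paralog of Lamp2, had a ratio of 1.59 (1.36 to 1.86), and the fusion proteins Snap29 and Vamp8 had 2.13 (1.497 to 3.05) and 1.63 (1.01 to 2.64). Stx17, the syntaxin of autophagosomes that acts with both in fusion, was lower, at 72.1 and 32.0 RPM, a ratio of 0.444 (0.376 to 0.523). Scarb2, the gene of this list with most reads, was at 142 and 140 RPM.

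Gla (minus strand, 134588169 to 134601005, 12.8 kb) was hardly covered. It had 4 BL6 reads at 9 weeks, 3 at 78 weeks and no CAST read, that is 0.410 RPM (0.112 to 1.05) and 0.517 RPM (0.107 to 1.51). A count of 0 of 4 allows a CAST share of up to 75% when 3 reads are taken as the limit, and the exact upper limits were 60.2% for 0 of 4 and 70.8% for 0 of 3, so the allelic state of the Fabry gene was not measurable at this depth. Hnrnph2, which starts 173 bp from Gla, had 58 reads at 9 weeks, 1 of them from CAST, and 44 at 78 weeks, 0 of them from CAST. On the other side, the nearest informative gene, Srpx2, was 655720 bp away, with an allelic ratio of 0.923 and 0.931 from 26 and 29 reads. Of the other lysosomal hydrolases, 19 of 20 reached 20 reads in both libraries, of which 5 were higher by 1.5 times or more (Ctsb, Psap, Idua, Ctsd and Gba2) and 4 lower, among them Ctsl and Manba. Of all genes, 28.0% were higher and 11.8% lower by this fold. With size factors 2 hydrolases were higher (Ctsb and Psap) and 4 lower, beside 18.8% and 17.7% of all genes. The cathepsin gene Ctsb had the largest ratio among the hydrolases, 2.53 (2.16 to 2.98).

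Emd is the shortest of the 6 loci, 6.89 kb on the plus strand from 74254672 to 74261563, with GENCODE exons over 36.5% of it. Emerin binds lamins and the chromatin protein Banf1 at the nuclear envelope. At 9 weeks 38 of its reads were of BL6 and 1 of CAST origin, and at 78 weeks 46 and 7. Total reads were 4.001 RPM (2.85 to 5.47) and 9.13 RPM (6.84 to 11.9), a ratio of 2.28 (1.48 to 3.54), and 1.99 with size factors. BL6 reads alone had a ratio of 2.03 (1.29 to 3.21). Of the 105 X-linked genes with fewer than 100 reads in both libraries, as Emd had, 31.4% were higher by 1.5 times or more in RPM. The aged level was therefore higher than the adult one beyond counting error, from both alleles together and from the BL6 allele.

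The CAST share of Emd was 2.56% (0.0649% to 13.5%) at 9 weeks and 13.2% (5.48% to 25.3%) at 78 weeks. Of the 333 other X-linked genes, 54.4% had a lower share at 9 weeks and 92.2% at 78 weeks. The allelic ratio was 0.974 (0.865 to 0.999) and 0.868 (0.747 to 0.945), so the aged value was below 0.9 with an interval that reached above it. The change in allelic ratio was 0.106, with an interval (-0.0189 to 0.225) that included 0. A lower allelic ratio by 0.1 or more was found for 3.25% of the informative X-linked genes, and a higher one by as much for 2.07%. CAST reads were 0.103 RPM (0.00260 to 0.572) and 1.21 RPM (0.485 to 2.48), and their ratio of 11.8 had an interval from 1.51 to 530. At the chromosome-wide shares, 1.15 and 1.82 CAST reads would have been counted, beside 1 and 7. The position of Emd past the escape cutoff in the aged heart rests on these 7 reads, and of the same 105 thinly covered X-linked genes, 18.1% had an aged allelic ratio of 0.9 or lower.

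**Figure D2:**
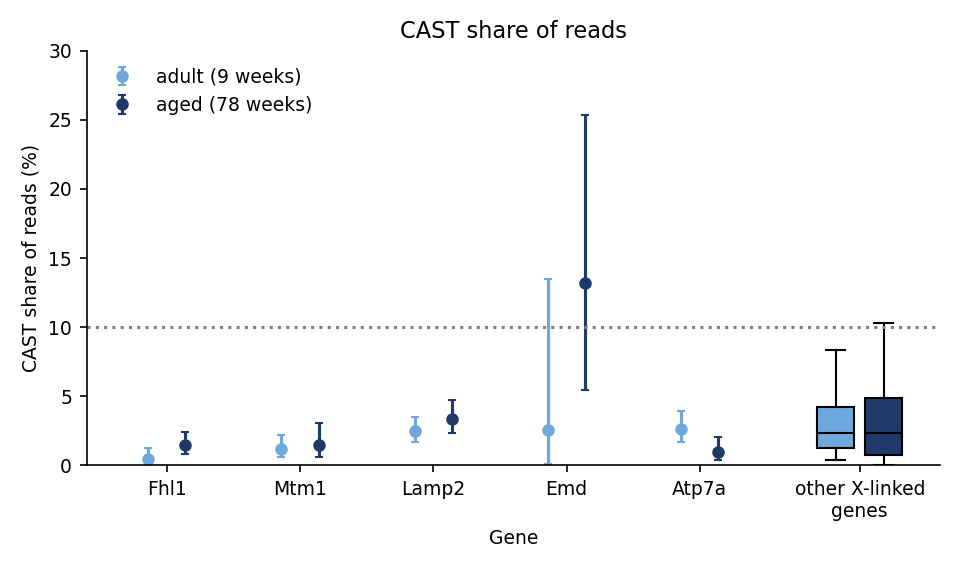
CAST share of reads (%) for the 5 genes with at least 20 reads in both libraries and, as boxes, for 333 other X-linked genes (box, quartiles and median; whiskers, percentiles 10 and 90). Points are single libraries with exact 95% intervals and the dotted line is the share of 10% that corresponds to an allelic ratio of 0.9; only aged Emd, at 13.2%, lies above it.

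The direct neighbours of Emd also had more RPM in the aged library, while their allelic ratio stayed above 0.9. Flna, 4819 bp upstream, had 97 and 119 reads, a ratio of 2.06 (1.56 to 2.72), and an allelic ratio of 0.969 and 0.966. Rpl10, 9252 bp downstream, had 124 and 161 reads, a ratio of 2.18 (1.71 to 2.78), and an allelic ratio of 0.927 and 0.975. The locus LOC108168464 lies wholly within the end of Emd over 532 bp, with 6 and 5 reads, all from BL6, which may be counted for both loci. The pattern most like Emd was that of Rbmx, with a ratio of 2.26 but an allelic ratio of 0.997 and 0.967, followed by Rpl10. Both were farther from Emd than any gene named here was from the other members, by a distance of 0.134 and 0.220 against 0.0380 or less. Over X-linked genes, those spanning under 10 kb also had a higher median log2 ratio, 0.35 over 39 genes, than those of 50 kb or more, -0.02 over 161 genes, and 23.1% of the former and 4.97% of the latter had an aged allelic ratio of 0.9 or lower. The part of locus length in the values of Emd was not tested. Of 12 genes of LEM-domain proteins, lamins and the complex linking nucleus and cytoskeleton, 5 were higher by 1.5 times or more and 0 lower. Of all genes, 28.0% were higher and 11.8% lower by this fold. With size factors 3 (Lmna, Banf1 and Lemd2) were higher and 1 (Syne1) lower, beside 18.8% and 17.7%. Lmna, the main binding partner of emerin, went from 54.5 to 132 RPM, a ratio of 2.42 (2.16 to 2.71), and Banf1 had a ratio of 2.36 (1.41 to 4.02). The LEM-domain genes Tmpo, Lemd2 and Lemd3 had ratios of 1.61, 1.74 and 1.52. Syne1 had most reads and a ratio of 0.683 (0.651 to 0.718).

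Atp7a (plus strand, 106027224 to 106128160, 101 kb) moves copper into the secretory pathway and out of the cell. Of its reads, 877 were of BL6 and 24 of CAST origin at 9 weeks, and 617 and 6 at 78 weeks. Total reads were 92.4 RPM (86.5 to 98.7) and 107 RPM (99.0 to 116), a ratio of 1.16 (1.05 to 1.29) that became 1.01 with size factors. By size factors, the total thus changed as that of the median gene did, within counting error. Scaled to the reads of X-linked genes, the ratio was 1.23, with an interval (1.11 to 1.36) that excluded 1. In point values, the CAST share of Atp7a was lower in the aged heart and that of Emd higher, a change whose interval included 0 for Emd. CAST reads of Atp7a went from 2.46 RPM (1.58 to 3.66) to 1.03 RPM (0.379 to 2.25). Their ratio of 0.420 had an interval (0.140 to 1.05) that reached 1, while the BL6 ratio was 1.18 (1.06 to 1.31). The CAST share of Atp7a was 2.66% (1.71% to 3.94%) and 0.963% (0.354% to 2.08%). Both values lay below the BL6 share of Xist reads, 4.18% and 3.14%, so neither is read as expression from the Xi. That Xist share was also lower in the aged pool, and its part in the change of Atp7a was not tested. In the adult library 24 CAST reads stood beside 26.5 at the chromosome-wide share, and in the aged library 6 beside 21.4.

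The allelic ratio of Atp7a was 0.973 (0.961 to 0.983) and 0.990 (0.979 to 0.996), a change of -0.0170 (-0.0307 to -0.00283). This was the only one of the 5 changes whose interval excluded 0, and it was toward a higher BL6 share in the aged heart, although the intervals of the single allelic ratios overlapped, as they did for all 5 genes. Separate intervals were found for 7.40% of the informative X-linked genes. How many of those genes had a change whose interval excluded 0 was not computed, so no share stands beside this call for Atp7a. Cox7b, 4773 bp upstream of Atp7a, had an allelic ratio of 0.993 and 0.992 from 1917 and 1297 reads, and Pgk1, 58939 bp downstream, had 0.962 and 0.981 from 53 and 54 reads. Rlim was among the X-linked genes most like Atp7a in pattern, with a ratio of 1.16 and an allelic ratio of 0.965 and 0.980. Among 11 copper-handling genes with at least 20 reads, 4 were higher by 1.5 times or more and 1 lower. Of all genes, 28.0% were higher and 11.8% lower by this fold. With size factors 1 (Loxl1) was higher and 1 (Sco1) lower, beside 18.8% and 17.7%. Loxl1, a copper-dependent enzyme that cross-links elastin, had a ratio of 3.24 (2.71 to 3.89), from 19.2 to 62.2 RPM, and Loxl2, Cox11 and Slc31a2 had ratios of 1.55, 1.70 and 1.53. Sco1, which delivers copper to cytochrome c oxidase, had 0.576 (0.381 to 0.853). Atp7b, the paralog mutated in Wilson disease, had 15 and 10 reads, too few for the comparison, and Pam had most reads, at 1403 and 1386 RPM.

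**Figure D3:**
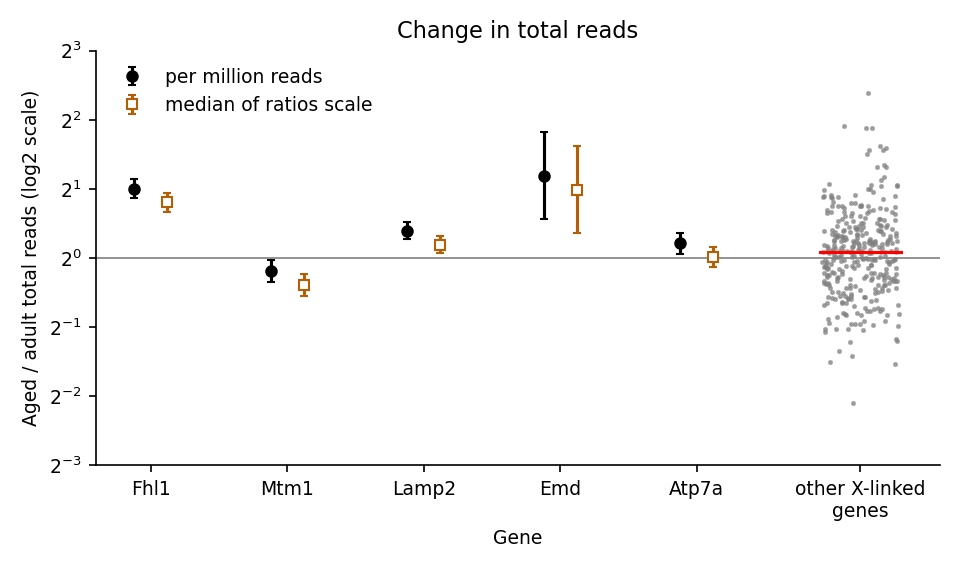
Aged to adult ratio of total reads (log2 scale) in RPM (filled) and after scaling by size factors (open), with exact 95% intervals of counting error, for the 5 informative genes. Grey points are 333 other X-linked genes in RPM and the red line is their median; Fhl1 and Emd lie above 1.5 on both scales and Mtm1 below 1 on both.

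Summed over the 5 informative genes, 70 of 3867 adult reads and 66 of 3067 aged reads were from CAST. The summed CAST share was 1.81% (1.41% to 2.28%) and 2.15% (1.67% to 2.73%), in both hearts below the chromosome-wide shares of 2.94% and 3.43%. The median share of the 333 other X-linked genes, 2.35% at both ages, lay above the adult interval and within the aged one. Without Emd the summed share was 1.80% and 1.96%. Of the 5 genes, 4 had a lower allelic ratio at 78 weeks and 1 a higher one, and a lower allelic ratio was found for 46.4% of all informative X-linked genes. From the lowest adult CAST share to the highest, the order was Fhl1, Mtm1, Lamp2, Emd and Atp7a. Every neighbouring pair in it had overlapping intervals, while Fhl1 lay apart from Lamp2 and Atp7a. In the aged heart the order was Atp7a, Fhl1, Mtm1, Lamp2 and Emd, in which Emd lay apart from all others and Atp7a also from Lamp2. By total RPM, Lamp2 came first in the adult heart, before Mtm1, Atp7a and Fhl1, whose intervals overlapped, and then Emd and Gla. In the aged heart Fhl1 and Lamp2 came first with overlapping intervals, followed by Atp7a, Mtm1, Emd and Gla.

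Of 15 other listed X-linked disease genes of heart or muscle with at least 20 reads in both libraries, 5 were higher by 1.5 times or more and 3 lower. With size factors 3 (Phka1, Bgn and Flna) were higher and 3 lower. Among the 338 X-linked genes, 18.0% were higher and 14.5% lower in RPM, and 10.9% and 23.1% with size factors. At or below an allelic ratio of 0.9 lay 4 of the 15 at 9 weeks (Hccs, Smpx, Bgn and Ndufb11) and 3 at 78 weeks (Smpx, Bgn and Ndufb11). Of the informative X-linked genes, 9.21% and 11.6% did so. Phka1, the muscle subunit of phosphorylase kinase, had the largest ratio, 5.23 (4.93 to 5.549), from 154 to 804 RPM, with an allelic ratio of 0.991 and 0.997. Bgn, Flna, Pgk1 and Pdha1 had ratios of 2.83, 2.06, 1.71 and 1.57, and Phka2 and Ids, the gene of the lysosomal storage disease Hunter syndrome, 0.534 and 0.639. The third lower gene, Vma21, had 57 and 21 reads, a ratio of 0.619 and an interval (0.356 to 1.04) that included 1. Dmd had most reads, with a ratio of 1.01.

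**Figure D4:**
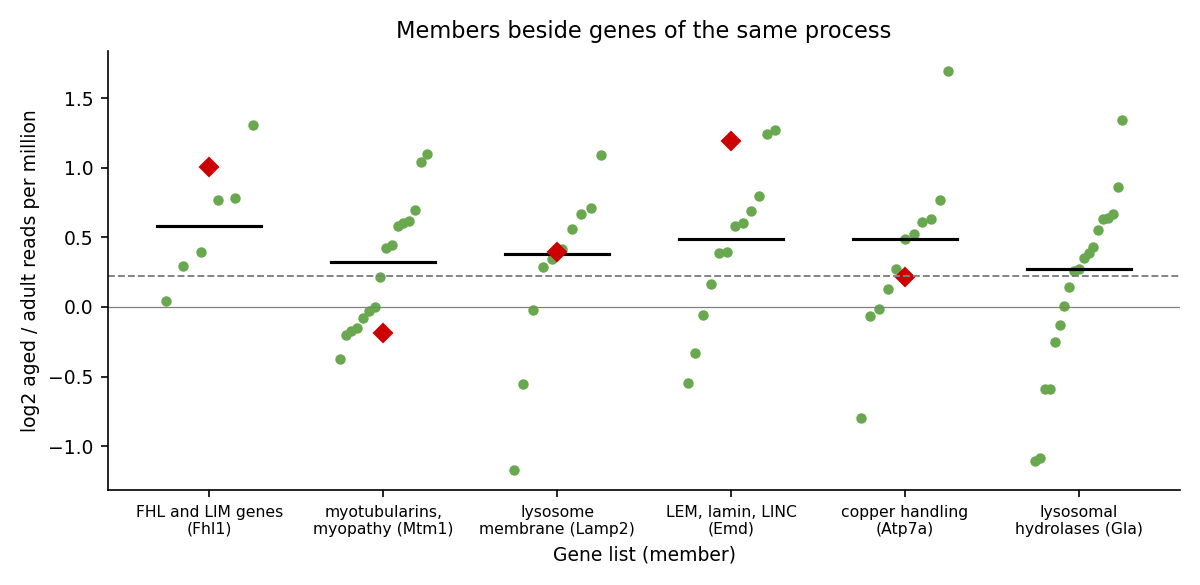
log2 ratio of aged to adult RPM of the genes with at least 20 reads in both libraries in 6 gene lists (green points, black line at the median) and of the member each list belongs to (red diamond; Gla is not drawn for want of reads). The dashed line is the median of all genes, 0.22; Fhl1 and Emd lie above the median of their lists, Lamp2 at it and Mtm1 and Atp7a below it.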

How the data were processed

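Nuclei of 1 heart per age were sorted on a DNA dye and sequenced as poly(A)-primed droplet libraries. The authors aligned with Cell Ranger 7.1.0, split reads by nucleus, pooled the nuclei with a BL6 Xa at each age and counted reads over SNPs with Allelome.PRO2 per RefSeq gene (GRCm38, mm10). The deposited values are read counts per allele, not normalized, and the allelic ratio as a fraction rounded by the authors, used only as an alternative. A deposited score was not used. The study's methods describe removal of doublets (DoubletFinder) and of ambient RNA (CellBender) for the expression matrices, whereas the pools for allelic counting were split from the alignment file, for which no correction for ambient RNA is described. Use of strand and of duplicate removal in this counting is not given in the sources used here, so reads may not be independent molecules and overlapping loci cannot be told apart.

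A minimum of 20 reads in both libraries was applied. Totals of 9747535 and 5805807 reads set the precision. Shares and allelic ratio have exact Clopper-Pearson intervals, RPM exact Poisson, ratios exact conditional and changes in allelic ratio (adult minus aged) Newcombe intervals (Python 3.11.15, scipy 1.17.1, tested on simulated data). Ratios were also scaled by the median of ratios and by TMM (edgeR 4.0.16). With 1 library per age no test was made. Xist, Tsix and the 7 genes the study excluded because of their values in males did not enter the counts, medians and ranks over genes. The chromosome-wide CAST share and the scaling to X-linked reads left out Xist and Tsix only. Deposited starts were raised by 1, which matched RefSeq for 489 of 686 X-linked genes. The members and gene lists were chosen with earlier results of these data known. Named genes are the members, their nearest informative and any overlapping loci, the 2 X-linked genes nearest in pattern (summed absolute differences in both allelic ratios and the log2 ratio), and from each list the gene with most reads, those past 1.5 times with an interval that excludes 1, and paralogs. Ankrd1, Mtmr4, Vma21, Vps41, Hccs, Smpx, Ndufb11 and the markers with no call were named after their values were seen. Some genes that this rule names are not reported here.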

Additional observations from a re-analysis of the deposited data

How the results depend on the processing

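With 1 library per age, no library could be left out. Of 213 recomputed values, 180 stayed within the counting error or, for counts, within 1.5 times the main value, 33 moved and 0 called values changed direction. The count of 180 includes values that could not move, since the Wilson setting repeats the main allelic ratio. It also includes ratios scaled to autosomal genes, a factor of only 0.999. The ratio of CAST reads of Mtm1, whose interval included 1, went from 1.07 to 0.922 (TMM) and 0.930 (median of ratios). TMM and the median of ratios lowered every ratio in RPM, by 0.21 and 0.20 on the log2 scale. The ratio of total reads became 1.73 and 1.75 for Fhl1, 1.13 and 1.14 for Lamp2, 0.756 and 0.763 for Mtm1 and 1.00 and 1.01 for Atp7a. That of BL6 reads became 1.72 and 1.73 for Fhl1, 1.12 and 1.13 for Lamp2, 0.754 and 0.761 for Mtm1 and 1.02 and 1.03 for Atp7a. The deposited allelic ratio of Fhl1 in the adult library was 1 by rounding. The share of other X-linked genes with less CAST than Fhl1 in the adult library was 5.71% with a minimum of 50 reads, 36.6% with 1 read and 8.52% without overlapping loci, and with 1 read it was 52.1% for Fhl1 and 48.9% for Atp7a in the aged library. With a cutoff of 0.85, 0 members counted as escaping in the aged library. With at least 50 reads, 0 copper genes were lower by 1.5 times. With the median of ratios, added for lists after the shift was seen, genes higher by 1.5 times numbered 3 for the X-linked disease genes, 1 for the LIM genes, 1 for lysosomal membranes (2 lower), 2 for hydrolases, 2 for myotubularins, 3 for the nuclear envelope (1 lower) and 1 for copper. Depth limits Emd and Gla most. No paired analysis was possible because each age has 1 library.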
